A study of Mus musculus with 12 samples.

Results

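The axon guidance genes described here are the semaphorins of classes 3 to 7 and their plexin and neuropilin receptors, the ephrins and their Eph receptors, the Slits and their Robo receptors, and the netrins with their receptor Dcc. They were chosen by gene symbol among the protein-coding genes, which gave 64 of the 48709 genes listed for each library. Of these, 34 encode ligands and 30 encode receptors, and 62 passed the filter on low counts. Epha1 and Ntn5, each with at most 10 reads in any library, did not pass it, and Ntn3 was not analysed here.

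The 12 RNA-seq libraries were made from E15.5 cortex of C57BL/6J mice. There were 4 libraries from a BAF155 conditional knockout (cKO), 4 labelled as a Pax6 conditional knockout and 4 from control. BAF155, encoded by Smarcc1, is a scaffold protein of BAF complexes, which remodel chromatin, and Pax6 encodes a transcription factor of cortical progenitors. The labels name no Cre driver, floxed allele or control genotype, and the study's design text compares each knockout with control.

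Guidance ligands are displayed on cells or secreted into the tissue, and receptors on growth cones and migrating cells turn them into attraction, repulsion or changes of adhesion. In the embryonic cortex the families are known for steering callosal, corticofugal and thalamocortical axons, for guiding the radial and tangential migration of neurons, and for acting on progenitors at the ventricle. Secreted class 3 semaphorins bind neuropilins, which pass the signal through plexins, whereas most membrane-bound semaphorins bind plexins directly.

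Library depth lay between 15.16 and 32.05 M counted reads. Levels are given as CPM, counts scaled to the library total after its adjustment by TMM, a scaling for library composition. Smarcc1 had 122, 133, 139 and 115 CPM in BAF155 cKO, 177, 187, 185 and 194 CPM in labelled Pax6 cKO and 220, 275, 359 and 361 CPM in control. Pax6 had 313, 369, 273 and 301 CPM in BAF155 cKO, 380, 399, 384 and 392 CPM in labelled Pax6 cKO and 82.0, 118, 125 and 116 CPM in control. Smarcc1 was thus lowest in BAF155 cKO, but it was also below control in every labelled Pax6 cKO library (log2 fold change -0.71). Pax6 counts were highest in the libraries labelled as its knockout and do not bear out that label. The group is therefore called "labelled Pax6 cKO" throughout. Pax6 was also above control in every BAF155 cKO library (log2 fold change 1.51). A count over the whole gene does not show whether a floxed exon was lost. Xist and Y-linked reads showed that all BAF155 cKO libraries came from female tissue, all labelled Pax6 cKO libraries from male tissue, control 1 and 2 from male and control 3 and 4 from female tissue. The names of the deposited files place all controls in lane 8, all labelled Pax6 cKO libraries and BAF155 cKO 1 and 2 in lane 1, and BAF155 cKO 3 and 4 in lane 3, so lane and group cannot be told apart against control. Only this lane number was read from the names, and a shared number does not show a shared sequencing run.

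Markers of the labelled tissue were present in every library. Tbr1, a transcription factor of early-born cortical projection neurons, lay at 185 to 295 CPM in BAF155 cKO, at 150 to 153 CPM in labelled Pax6 cKO and at 255 to 472 CPM in control. The summed level of 12 markers of cortical projection neurons was 2000 to 2760 CPM in BAF155 cKO, 2090 to 2310 CPM in labelled Pax6 cKO and 3240 to 4340 CPM in control. Markers of the ventral telencephalon and GABAergic neurons, 18 genes, summed to 1390 to 1630 CPM in BAF155 cKO, 1650 to 1780 CPM in labelled Pax6 cKO and 716 to 1120 CPM in control. In neither list did the ranges of the cKO groups reach those of control. The 11 upper-layer markers summed to 1080 to 1540 CPM in BAF155 cKO, 1100 to 1160 CPM in labelled Pax6 cKO and 1970 to 2600 CPM in control, and the 10 Cajal-Retzius markers to 771 to 778 CPM, 948 to 972 CPM and 530 to 684 CPM in the same 3 groups. In the same group order, the 12 deep-layer markers summed to 941 to 1290, 1000 to 1100 and 1250 to 1960 CPM. For the 11 radial glia markers the sums were 2630 to 2990, 2950 to 3150 and 3060 to 3190 CPM. For the 10 intermediate progenitor markers they were 640 to 897, 614 to 660 and 900 to 1330 CPM. The deep-layer sums of BAF155 cKO and the radial glia sums of labelled Pax6 cKO overlapped control. Choroid plexus markers, 9 genes, summed to 30.4, 340, 110 and 213 CPM in the labelled Pax6 cKO libraries, in order of replicate. They summed to 12.9 to 27.2 CPM in BAF155 cKO and 19.3 to 40.5 CPM in control. In bulk tissue, fewer cells of a type and less RNA per cell cannot be told apart, and the part of these cell type markers in the changes of guidance genes was not tested.

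Per length of transcript, the guidance genes spanned a wide range in control cortex. On the scale of CPM per kilobase of exon (RPKM), the highest was the ephrin-B ligand Efnb2 at 60.8 ± 6.41 RPKM (SD, n = 4), followed by Efnb1 at 49.3 ± 9.88 RPKM. Epha4 (45.8 ± 3.37), Plxnb2 (45.7 ± 4.95), Plxna2 (43.8 ± 5.33), Plxna3 (43.1 ± 6.18) and Efnb3 (42.1 ± 6.90 RPKM) came next, and neighbours in this order differed by less than the larger of their SDs. Sema7a had 32.7 ± 3.58 RPKM and Sema4c 30.4 ± 2.48 RPKM, a difference smaller than the SD of Sema7a. Sema3d, at 0.248 ± 0.0398 RPKM, was among the low genes, and Plxnb3 was the lowest of those tested, at 0.0764 ± 0.0270 RPKM. Efnb2 was also first in BAF155 cKO, at 51.0 ± 3.77 RPKM, and in labelled Pax6 cKO, at 47.5 ± 3.50 RPKM. In this order Sema5a stood at place 50 in BAF155 cKO, at place 51 in labelled Pax6 cKO and at place 37 in control.

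**Figure D1:**
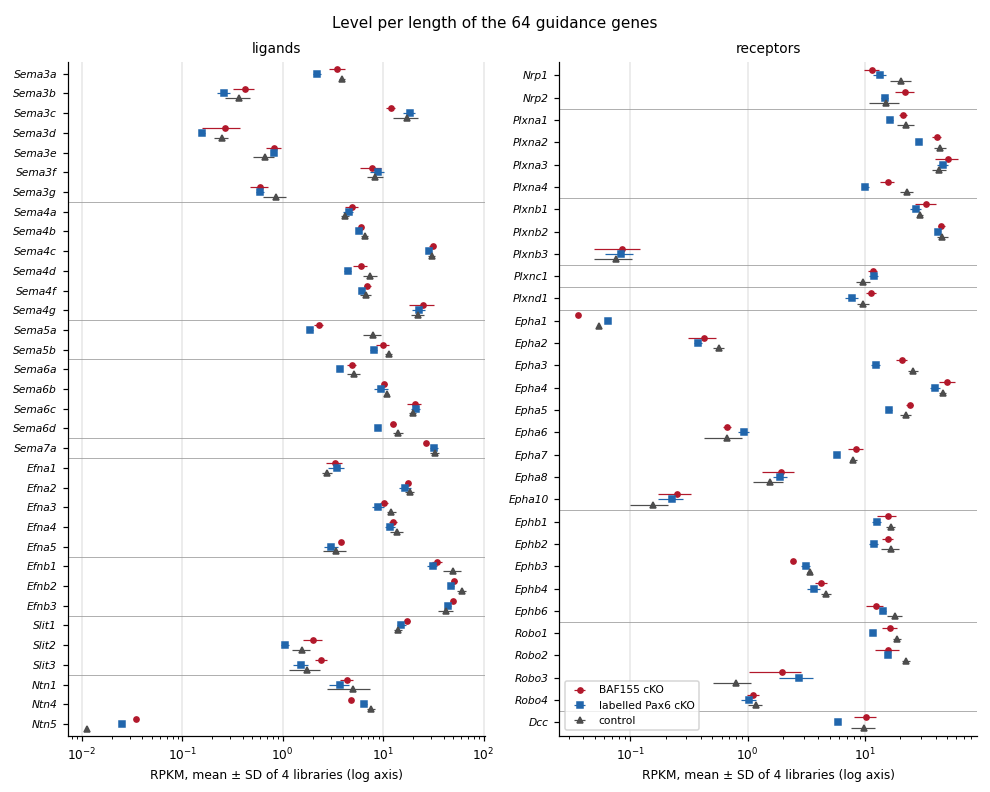
Mean level of the 64 guidance genes in RPKM on a log axis, with bars for the SD of 4 libraries, for ligands on the left and receptors on the right; grey lines part the families, and the bars of the untested Epha1 and Ntn5 are left out. Efnb2 is the highest gene in all 3 groups, and Sema5a, Epha3 and Plxna4 lie to the left of control in both cKO groups.

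All 64 genes summed to 6700 to 7390 CPM in BAF155 cKO, 5750 to 6030 CPM in labelled Pax6 cKO and 6880 to 8080 CPM in control. Receptors alone summed to 4560 to 5260 CPM in BAF155 cKO, 3800 to 3960 CPM in labelled Pax6 cKO and 4610 to 5540 CPM in control. Only the labelled Pax6 cKO sums lay apart from those of control.

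In BAF155 cKO against control, 14 of the 62 tested guidance genes (22.6%) were called at an adjusted p under 0.05 by edgeR's quasi-likelihood test, where 13.6% of all 16511 tested genes were called. Of these, 3 were higher (6.04% of all genes were called higher) and 11 were lower (7.56% of all genes). The median log2 fold change of the guidance genes was -0.07, and that of all tested genes 0.01. The higher genes were Slit1, Nrp2 and Robo3; the lower genes were Sema3c, Sema5a, Sema7a, Efnb1, Ntn4, Nrp1, Plxna4, Epha3, Ephb3, Ephb6 and Robo2. In 9 of the 14 the libraries of the 2 groups did not overlap. A call without overlap was thus met by 14.5% of the 62 and by 9.85% of all tested genes.

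In labelled Pax6 cKO against control, 31 of the 62 were called, where 35.5% of all tested genes were called. Only 2 were higher, Plxnc1 and Robo3 (16.6% of all genes were called higher), and 29 were lower (18.9% of all genes). The median log2 fold change was -0.23 for the guidance genes and 0.02 for all tested genes. The lower genes included 8 of 20 semaphorins, 8 of 13 tested Eph receptors, 3 of 8 ephrins and 3 of 4 class A plexins. The libraries did not overlap for 23 of the 31. A call without overlap was thus met by 37.1% of the 62 and by 29.9% of all tested genes. Both comparisons share the 4 control libraries.

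BAF155 cKO and labelled Pax6 cKO were also compared directly, a contrast the design text does not list. Of the 62 genes, 15 (24.2%) were called, where 4.31% of all tested genes were called. In BAF155 cKO 12 were higher (2.3% of all genes) and 3 were lower (2.01% of all genes). In none of the 15 did the libraries overlap. A call without overlap was thus met by 24.2% of the 62 and by 4.18% of all tested genes. The median was 0.15 for the guidance genes and 0.01 for all genes. In this contrast the female BAF155 cKO tissue is set against male tissue, so sex and genotype cannot be told apart. BAF155 cKO 1 and 2 carried the same lane number as the other group, and with those 2 libraries alone 11 of the 12 higher calls were kept, while the 3 lower calls were lost. With BAF155 cKO 3 and 4 of lane 3 alone, 6 of the 12 higher calls were kept. Those of Dcc, Plxna2, Plxna4, Plxnd1, Sema6a and Sema6d were lost there, as were the 3 lower calls.

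**Figure D2:**
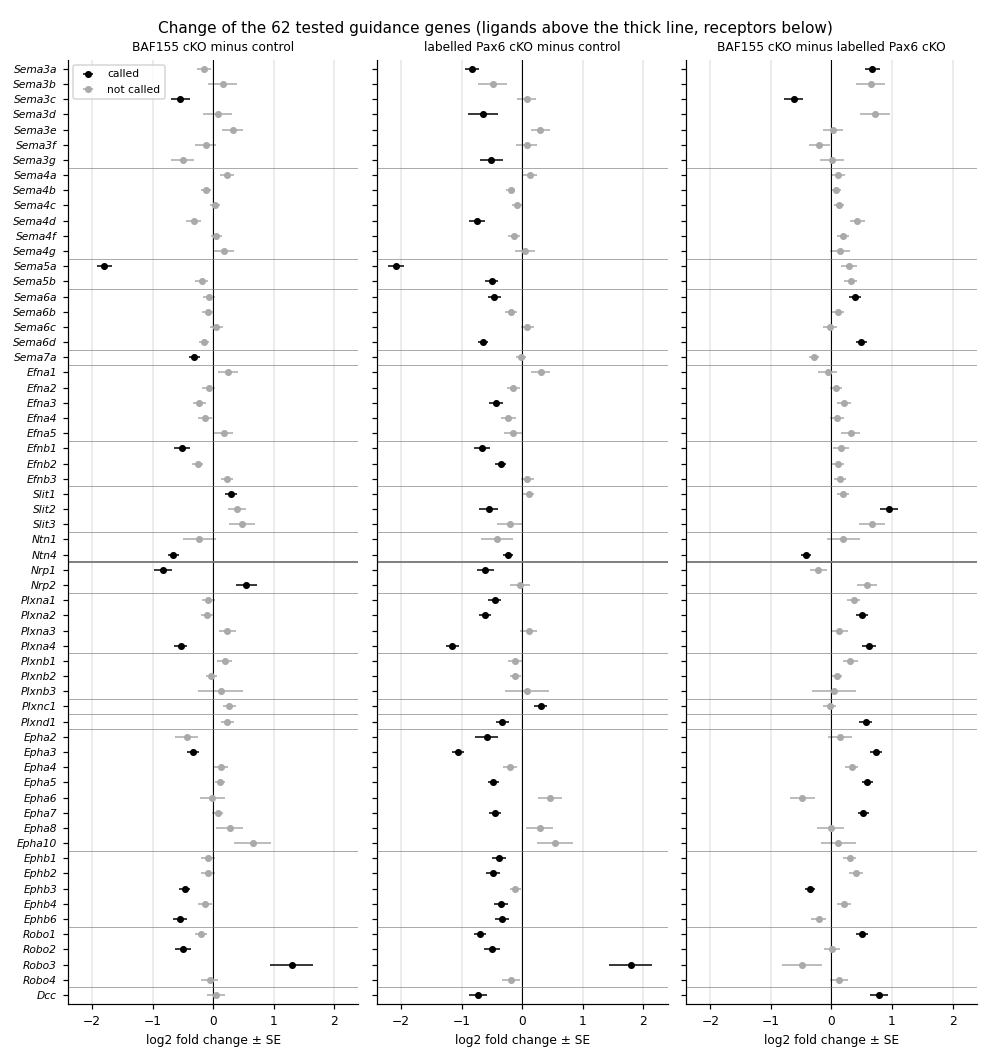
Log2 fold change with its SE for the 62 tested guidance genes in the 3 contrasts, black where called at an adjusted p under 0.05 and grey where not, with ligands above the thick line and receptors below it. Sema5a is the lowest point of both comparisons with control and Robo3 the highest, and most black points of the middle panel lie left of 0.

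Among all 62 genes, Sema5a changed most against control in both groups. It encodes a membrane-bound class 5 semaphorin with thrombospondin repeats that can attract or repel axons, and lies on chromosome 15, 32244810 to 32696341 (mm10). Sema5a had 37.2, 47.7, 42.4 and 43.8 CPM in BAF155 cKO, 32.1, 35.4, 35.0 and 37.8 CPM in labelled Pax6 cKO and 109, 144, 179 and 162 CPM in control. Every cKO library lay below every control library, and the cKO groups overlapped each other. Its mean was 28.9% of the control mean in BAF155 cKO (log2 fold change -1.80, adjusted p = 2.83e-07, SE 0.13) and 23.7% in labelled Pax6 cKO (-2.08, adjusted p = 4.46e-08, SE 0.13). Between the cKO groups the difference of 0.29 (SE 0.13) was not called (adjusted p = 0.208). The call held without any 1 of the 12 libraries and in each lane. The other class 5 gene, Sema5b, averaged 70.7 CPM in BAF155 cKO, 56.8 CPM in labelled Pax6 cKO and 80.6 CPM in control. It was called lower only in labelled Pax6 cKO (log2 fold change -0.50, adjusted p = 0.00253), and not in BAF155 cKO (-0.19, adjusted p = 0.213).

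Epha3 and Ntn4 were also called lower in both groups, and Sema3a was called lower in labelled Pax6 cKO. The letters before a transcription start of these genes and of Sema5a are shown to let their base composition be seen beside these changes. Each stretch is the 250 bases before a RefSeq start in GRCm38.p6, read 5′ to 3′ on the gene's strand, with every CG dinucleotide in capitals. The windows lie at chr15:32244563-32244812 (plus strand) for Sema5a, chr16:63864176-63864425 (minus strand) for Epha3, chr10:93640799-93641048 (plus strand) for Ntn4 and chr5:13396534-13396783 (plus strand) for Sema3a. The Sema3a window belongs to an internal start, far inside the annotated gene (13125414 to 13602565). The Ntn4 window lies shortly after the annotated gene start at 93640681.
Sema5a: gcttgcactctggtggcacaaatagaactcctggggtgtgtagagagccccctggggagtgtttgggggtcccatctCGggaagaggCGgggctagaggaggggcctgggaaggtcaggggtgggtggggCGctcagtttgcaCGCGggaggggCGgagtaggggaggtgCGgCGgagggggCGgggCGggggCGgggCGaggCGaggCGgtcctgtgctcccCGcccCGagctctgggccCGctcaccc
Epha3: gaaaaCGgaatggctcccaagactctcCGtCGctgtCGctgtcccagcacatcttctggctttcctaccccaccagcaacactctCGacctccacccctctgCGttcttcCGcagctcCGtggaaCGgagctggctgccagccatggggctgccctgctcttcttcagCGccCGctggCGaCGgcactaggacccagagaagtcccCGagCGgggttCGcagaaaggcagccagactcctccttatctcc
Ntn4: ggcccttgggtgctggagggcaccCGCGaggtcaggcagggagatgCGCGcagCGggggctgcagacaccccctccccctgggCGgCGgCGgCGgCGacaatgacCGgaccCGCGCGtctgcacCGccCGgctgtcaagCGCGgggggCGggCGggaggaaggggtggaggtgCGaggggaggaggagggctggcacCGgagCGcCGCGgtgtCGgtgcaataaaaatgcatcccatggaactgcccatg
Sema3a: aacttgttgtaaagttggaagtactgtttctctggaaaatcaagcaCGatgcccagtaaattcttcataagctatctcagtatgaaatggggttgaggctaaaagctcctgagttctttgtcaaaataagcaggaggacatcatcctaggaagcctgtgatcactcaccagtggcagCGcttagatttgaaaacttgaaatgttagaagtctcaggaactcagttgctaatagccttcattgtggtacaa

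The Sema5a window held 17 CG dinucleotides at 72.0% G+C, Epha3 16 at 62.8%, Ntn4 26 at 73.2% and the internal Sema3a window 2 at 40.8%. Such windows were found for 55 of the 64 guidance genes, 71 windows in all. Their medians were 15 CG dinucleotides and 64% G+C, against 6 and 52.4% for all 32851 windows of the table. At least 1 CG stood in 98.6% of the guidance windows and in 92.1% of all windows. The E-box letters CAGCTG stood in 12 of the 71 guidance windows (16.9%, against 13% of all) and CAGATG, searched on both strands, in 5 (7.04%, against 14.4% of all). The letters TTCACGC, also searched on both strands, stood in 0 of the 71, against 1.03% of all. Of the guidance windows, 34 belonged to genes called in labelled Pax6 cKO. Among these 34, CAGCTG stood in 3 (8.82%), CAGATG in 1 (2.94%) and TTCACGC in 0. Of the Sema5a window, 100 bases are also annotated as exon of the noncoding gene Snhg18.

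The class 3 semaphorins are secreted. Of the 7, 1 was called lower in BAF155 cKO and 3 in labelled Pax6 cKO, where 7.56% and 18.9% of all tested genes were called lower. None of the 7 was called higher against control. Sema3a, which repels cortical axons through Nrp1 and class A plexins, had 38.9, 44.3, 59.4 and 52.3 CPM in BAF155 cKO, 26.5, 32, 30.4 and 32.8 CPM in labelled Pax6 cKO and 53.7, 59.2, 49.9 and 53.8 CPM in control. All labelled Pax6 cKO libraries lay below all others, and BAF155 cKO overlapped control. On the log2 scale it differed from control by -0.83 (adjusted p = 0.00016, SE 0.12) in labelled Pax6 cKO and -0.16 (adjusted p = 0.353, SE 0.12) in BAF155 cKO. The direct difference was 0.68 (adjusted p = 0.00456, SE 0.12), and BAF155 cKO averaged 160% of labelled Pax6 cKO.

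Sema3c, known as an attractant of callosal axons, went the other way between the cKO groups. It had 77.1, 98.4, 81.7 and 83.4 CPM in BAF155 cKO, 112, 143, 120 and 150 CPM in labelled Pax6 cKO and 171, 130, 99.3 and 96.8 CPM in control. Against labelled Pax6 cKO it was lower without overlap (-0.62, adjusted p = 0.0388, SE 0.16); against control it was lower (-0.54, adjusted p = 0.035, SE 0.16), but BAF155 cKO 2 stood above control 4. The call against control was lost without BAF155 cKO 1, 3 or 4 or control 1 or 2 (0.0584 to 0.101 for the adjusted p), and the direct call without BAF155 cKO 1, 3 or 4 or labelled Pax6 cKO 2, 3 or 4 (0.0641 to 0.118). For labelled Pax6 cKO against control the log2 fold change was 0.08 (adjusted p = 0.73).

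Sema3d, a low secreted semaphorin, had 1.48, 1.82, 3.61 and 2.30 CPM in BAF155 cKO, 1.38, 1.30, 1.46 and 1.27 CPM in labelled Pax6 cKO and 2.08, 2.37, 2.42 and 1.67 CPM in control. The labelled Pax6 cKO libraries were the 4 lowest, and the log2 fold change of -0.65 (SE 0.24) stood at an adjusted p of 0.0492, which rose above 0.05 without BAF155 cKO 4, control 1, 2 or 3 or any labelled Pax6 cKO library (0.0564 to 0.122). Sema3g was called lower at -0.51 (adjusted p = 0.0469), and this call was lost without BAF155 cKO 3 or 4, control 3 or 4 or any labelled Pax6 cKO library (0.0521 to 0.194). Neither of these low genes was called in BAF155 cKO, where the values were 0.07 for Sema3d and -0.50 for Sema3g (adjusted p = 0.0906). Sema3b, Sema3e and Sema3f were called in no contrast. Sema3f, the ligand that binds Nrp2, averaged 39.9 CPM in BAF155 cKO, 45.7 CPM in labelled Pax6 cKO and 43.4 CPM in control.

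Among the membrane-bound semaphorins of classes 4 and 6, none was called against control in BAF155 cKO and 3 of 10 were called lower in labelled Pax6 cKO. Of all tested genes, 13.6% were called in BAF155 cKO and 18.9% were called lower in labelled Pax6 cKO. Sema6d, a plexin-A1 ligand that also acts as a receptor, had 142, 138, 132 and 121 CPM in BAF155 cKO, 98.4, 88.2, 95.6 and 96.0 CPM in labelled Pax6 cKO and 134, 134, 162 and 163 CPM in control. Its labelled Pax6 cKO libraries stood apart below the rest (log2 fold change -0.65, adjusted p = 0.000116, SE 0.09), and the direct difference was 0.49 (adjusted p = 0.00515, SE 0.09). In BAF155 cKO the log2 fold change was -0.15 (adjusted p = 0.23).

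Sema4d, a ligand of class B plexins, had 49.4, 53.8, 42.4 and 37.2 CPM in BAF155 cKO, 32, 38.2, 33.9 and 32.1 CPM in labelled Pax6 cKO and 56.1, 44.7, 64.5 and 63.1 CPM in control. The labelled Pax6 cKO libraries were all below control (log2 fold change -0.75, adjusted p = 0.000718, SE 0.13), and BAF155 cKO lay between and touched both (-0.32, adjusted p = 0.0988, SE 0.13). Sema6a, a ligand of plexins A2 and A4, was lower in labelled Pax6 cKO at -0.46 (adjusted p = 0.00362). Its direct difference of 0.39 (adjusted p = 0.0419) was lost without BAF155 cKO 1, 2 or 3 or any labelled Pax6 cKO library (0.0633 to 0.113). The other 7 genes of these classes, Sema4a, Sema4b, Sema4c, Sema4f, Sema4g, Sema6b and Sema6c, were called in no contrast, with log2 fold changes against control from -0.11 (Sema4b) to 0.23 (Sema4a) in BAF155 cKO and from -0.19 (Sema4b and Sema6b) to 0.12 (Sema4a) in labelled Pax6 cKO.

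Sema7a, which is anchored to the membrane by a lipid and binds Plxnc1 and integrins, was called lower in BAF155 cKO and not in labelled Pax6 cKO. It had 87.8, 87.4, 84.2 and 88.5 CPM in BAF155 cKO, 97.9, 120, 105 and 102 CPM in labelled Pax6 cKO and 124, 101, 110 and 96.9 CPM in control. BAF155 cKO libraries lay close together below all others. Fitted log2 fold changes were -0.31 (adjusted p = 0.0309, SE 0.09) in BAF155 cKO, a call lost without BAF155 cKO 1, 3 or 4 or control 3 (0.0546 to 0.0779 for the adjusted p), and -0.02 (adjusted p = 0.883) in labelled Pax6 cKO. The direct difference of -0.29 was not called (adjusted p = 0.0713). Plxnc1, its receptor, averaged 97.3 CPM in BAF155 cKO, 99.3 CPM in labelled Pax6 cKO and 80.6 CPM in control. It was called higher in labelled Pax6 cKO (0.30, adjusted p = 0.0323, SE 0.10) although labelled Pax6 cKO 2, at 86.9 CPM, stood below control 4, at 93.2 CPM. That call was lost without control 1 or 3 or labelled Pax6 cKO 1, 3 or 4 (0.0676 to 0.117), and in BAF155 cKO the value was 0.27 (adjusted p = 0.0861).

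The transmembrane ephrin-B ligands Efnb1 and Efnb2 were lower, while Efnb3 was not called. Efnb1 had 109, 138, 111 and 120 CPM in BAF155 cKO, 110, 123, 103 and 92.3 CPM in labelled Pax6 cKO and 134, 150, 207 and 190 CPM in control. It lies on chromosome X, and the lower 2 controls, 1 and 2, were the male ones. All labelled Pax6 cKO libraries and all BAF155 cKO libraries but replicate 2 lay below control. Its fitted log2 fold change was -0.67 (adjusted p = 0.00193, SE 0.13) in labelled Pax6 cKO and -0.51 (adjusted p = 0.0207, SE 0.13) in BAF155 cKO, the call in BAF155 cKO being lost without BAF155 cKO 1 or 4 or control 3 or 4 (0.0547 to 0.0732). Efnb2, the highest guidance gene per length, had 333, 377, 367 and 323 CPM in BAF155 cKO, 300, 356, 314 and 332 CPM in labelled Pax6 cKO and 379, 383, 469 and 437 CPM in control. Both cKO groups lay below control, but only labelled Pax6 cKO was called (-0.36, adjusted p = 0.00927, SE 0.09; BAF155 cKO -0.25, adjusted p = 0.0819, SE 0.09). Efnb3 had log2 fold changes of 0.22 in BAF155 cKO and 0.09 in labelled Pax6 cKO. Of the 5 lipid-anchored ephrin-A ligands, Efna3 was called lower in labelled Pax6 cKO (-0.44, adjusted p = 0.00822) and no other call was made.

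The secreted Slits, ligands of Robo receptors, differed among themselves. Slit2 had 54.0, 65.2, 40.0 and 46.7 CPM in BAF155 cKO, 30.0, 26.2, 26.8 and 23.9 CPM in labelled Pax6 cKO and 38.5, 29.7, 39.9 and 49.3 CPM in control. BAF155 cKO lay above labelled Pax6 cKO in every library, with control between and overlapping both. The direct difference was 0.95 (adjusted p = 0.0029, SE 0.15), the largest in size among the 62 genes in that contrast, and BAF155 cKO averaged 193% of labelled Pax6 cKO. Against control, Slit2 was called lower in labelled Pax6 cKO (-0.56, adjusted p = 0.0115, SE 0.15) and not called in BAF155 cKO (0.39, adjusted p = 0.0909, SE 0.15). With the lane 1 libraries of BAF155 cKO the direct difference was 1.17 and with those of lane 3 it was 0.71, both called.

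Slit1 had 112, 97.6, 97.1 and 105 CPM in BAF155 cKO, 101, 84.9, 94.6 and 80.1 CPM in labelled Pax6 cKO and 88.1, 72.4, 87.5 and 87.6 CPM in control. BAF155 cKO lay above all controls and overlapped labelled Pax6 cKO. The rise of 0.29 (adjusted p = 0.046, SE 0.09) was lost without BAF155 cKO 1, 3 or 4, control 2, 3 or 4 or labelled Pax6 cKO 2 or 3 (0.0534 to 0.123). Labelled Pax6 cKO gave 0.10 (adjusted p = 0.395). Slit3 averaged 14.7 CPM in BAF155 cKO, 9.25 CPM in labelled Pax6 cKO and 10.6 CPM in control and was not called.

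The netrins are laminin-like secreted ligands. Ntn4 had 17.3, 19.3, 17.7 and 17.6 CPM in BAF155 cKO, 23.2, 24.6, 22.7 and 25.8 CPM in labelled Pax6 cKO and 26.8, 26.9, 31.8 and 27.9 CPM in control. The 3 groups did not overlap, with BAF155 cKO lowest and control highest. Its log2 fold change was -0.66 (adjusted p = 0.000157, SE 0.09) in BAF155 cKO and -0.23 (adjusted p = 0.0424, SE 0.08) in labelled Pax6 cKO, and the direct difference was -0.42 (adjusted p = 0.0119, SE 0.09). The call in BAF155 cKO held without any 1 library. The call in labelled Pax6 cKO was lost without control 3 or 4 or labelled Pax6 cKO 1, 2 or 3 (0.0608 to 0.16) and the direct call without labelled Pax6 cKO 4 (0.0506). Ntn1, the classic attractant of Dcc-bearing axons, ranged from 21.1 to 29.9 CPM in BAF155 cKO, from 17.8 to 28.8 CPM in labelled Pax6 cKO and from 16.5 to 48.6 CPM in control and was not called.

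**Figure D3:**
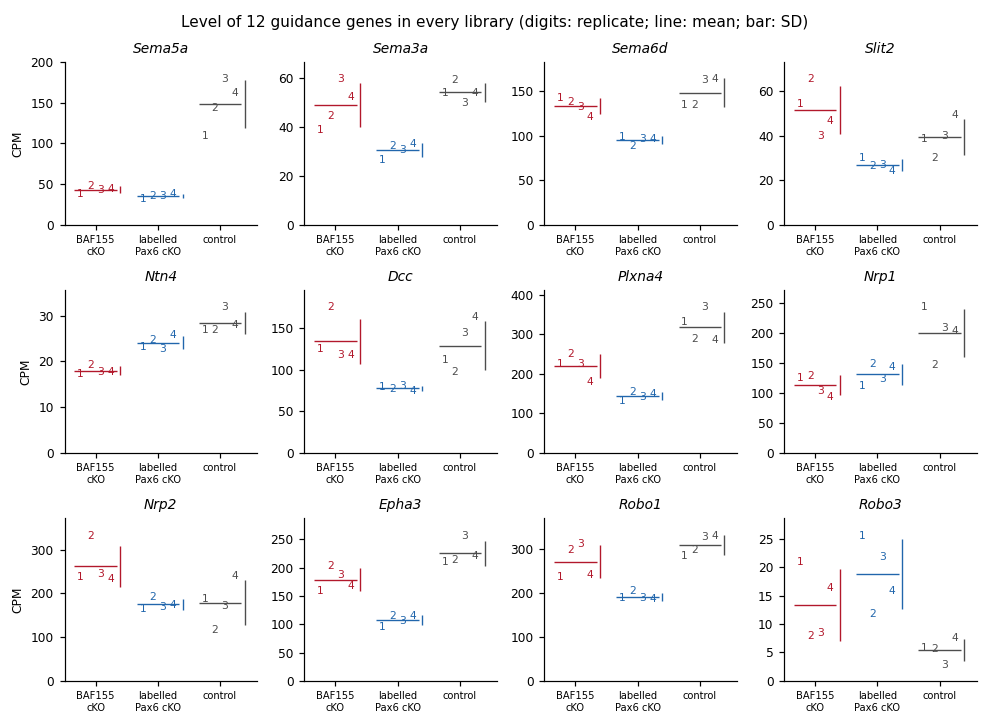
CPM of 12 guidance genes in each library, with digits for the replicate, a line for the group mean and a bar for the SD of 4 libraries; every axis starts at 0. Sema5a is low in both cKO groups, Ntn4 is lowest in BAF155 cKO, and Sema3a, Sema6d, Slit2, Dcc, Plxna4, Epha3 and Robo1 are lowest in labelled Pax6 cKO.

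Dcc, the receptor that mediates attraction to netrin 1, had 125, 175, 118 and 118 CPM in BAF155 cKO, 78.8, 76.2, 80.6 and 74.7 CPM in labelled Pax6 cKO and 112, 97.2, 144 and 163 CPM in control. The labelled Pax6 cKO libraries lay close together below all others, and BAF155 cKO overlapped control. The fitted change on the log2 scale was -0.73 (adjusted p = 0.00257, SE 0.15) in labelled Pax6 cKO and 0.05 (adjusted p = 0.824, SE 0.15) in BAF155 cKO. The direct difference of 0.79 (adjusted p = 0.00896, SE 0.15) was 0.96 in lane 1 (adjusted p = 0.0111) and 0.61 with the lane 3 libraries (adjusted p = 0.0824).

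The neuropilins bind class 3 semaphorins, Nrp1 being the receptor of Sema3a and Nrp2 that of Sema3f. In BAF155 cKO they moved apart. Nrp1 had 124, 128, 103 and 93.1 CPM in BAF155 cKO, 111, 147, 122 and 142 CPM in labelled Pax6 cKO and 242, 146, 207 and 202 CPM in control. BAF155 cKO lay below all controls, and in labelled Pax6 cKO only replicate 2 reached the lowest control. Against control the log2 change was -0.83 (adjusted p = 0.00171, SE 0.14) in BAF155 cKO and -0.61 (adjusted p = 0.00526, SE 0.14) in labelled Pax6 cKO. Nrp2 had 238, 332, 243 and 232 CPM in BAF155 cKO, 163, 192, 169 and 174 CPM in labelled Pax6 cKO and 188, 117, 170 and 240 CPM in control. BAF155 cKO lay above labelled Pax6 cKO but overlapped control 4. The rise of 0.55 (adjusted p = 0.043, SE 0.17) in BAF155 cKO was lost without any 1 of 11 libraries, control 4 being the exception (0.0507 to 0.115), and the direct difference of 0.58 was not called (adjusted p = 0.0626).

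Plexins are the signalling receptors of semaphorins, and those of class A also serve class 3 semaphorins bound to neuropilins. Plxna4, on chromosome 6, 32144268 to 32588192, had 224, 250, 225 and 179 CPM in BAF155 cKO, 130, 154, 140 and 148 CPM in labelled Pax6 cKO and 332, 288, 368 and 285 CPM in control. The 3 groups did not overlap, with labelled Pax6 cKO lowest. Its mean was 69.2% of control in BAF155 cKO (log2 fold change -0.53, adjusted p = 0.00556, SE 0.11) and 45% in labelled Pax6 cKO (-1.16, adjusted p = 4.38e-06, SE 0.11), and the direct difference was 0.62 (adjusted p = 0.00517, SE 0.11). The call in BAF155 cKO was lost with the lane 1 libraries alone (-0.41, adjusted p = 0.0782) and kept with those of lane 3 (-0.66, adjusted p = 0.00565). Exons of 15 guidance genes overlap those of another annotated gene. For Plxna4 (with Plxna4os3), Plxna1, Efna3, Ephb1 and Ephb4 that gene lies on the other strand. Reads of the shared bases cannot be told apart there in libraries that do not keep strand. For Nrp1 and Plxnc1 the other gene lies on the same strand, so strand would not part them.

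Plxna2, a Sema6a receptor, had 721, 771, 670.0 and 638 CPM in BAF155 cKO, 479, 498, 488 and 503 CPM in labelled Pax6 cKO and 703, 663, 873 and 769 CPM in control. Labelled Pax6 cKO lay apart below the other groups, which overlapped. Relative to control, the log2 difference was -0.61 (adjusted p = 0.000448, SE 0.10) in labelled Pax6 cKO and -0.10 (adjusted p = 0.469) in BAF155 cKO, and the direct difference was 0.51 (adjusted p = 0.00878, SE 0.10). Plxna1 was called lower in labelled Pax6 cKO (-0.45, adjusted p = 0.00559) and Plxna3 in neither comparison. None of the 3 class B plexins, the receptors of class 4 semaphorins, was called in any contrast.

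Plxnd1, which binds Sema3e without a neuropilin and is also an endothelial receptor, had 83.9, 82.9, 91.3 and 73.2 CPM in BAF155 cKO, 53.3, 66.7, 53.2 and 51.0 CPM in labelled Pax6 cKO and 60.8, 68.4, 81.4 and 71.3 CPM in control. BAF155 cKO lay above labelled Pax6 cKO, and control overlapped both. The direct difference was 0.56 (adjusted p = 0.00797, SE 0.11). The call against control in labelled Pax6 cKO (-0.33, adjusted p = 0.0257) was lost without control 3 or 4 or labelled Pax6 cKO 1, 3 or 4 (0.059 to 0.0979). The 12 endothelial markers summed to 151 to 229 CPM in BAF155 cKO, 223 to 255 CPM in labelled Pax6 cKO and 198 to 248 CPM in control, and their part in the Plxnd1 values was not tested.

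EphA receptors mainly bind ephrin-A ligands and set up topographic maps. Of the 8 tested, 4 were called lower in labelled Pax6 cKO and 1 in BAF155 cKO, and 3 were called higher in BAF155 cKO than in labelled Pax6 cKO. The shares of all tested genes with these calls were 18.9%, 7.56% and 2.3%. Epha3, on chromosome 16, 63543534 to 63864175, had 159, 203, 187 and 167 CPM in BAF155 cKO, 95.9, 115, 105 and 114 CPM in labelled Pax6 cKO and 210.0, 214, 257 and 220.0 CPM in control. The 3 groups did not overlap, with labelled Pax6 cKO lowest and control highest. On the log2 scale it differed from control by -1.07 (adjusted p = 2.92e-06, SE 0.10) in labelled Pax6 cKO and -0.33 (adjusted p = 0.0366, SE 0.10) in BAF155 cKO, and the direct difference was 0.74 (adjusted p = 0.000855, SE 0.10). The call in BAF155 cKO was lost without BAF155 cKO 1 or 4, control 3 or 4 or labelled Pax6 cKO 3 (0.055 to 0.125).

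Epha5 had 375, 428, 423 and 388 CPM in BAF155 cKO, 252, 280.0, 256 and 282 CPM in labelled Pax6 cKO and 344, 340.0, 415 and 395 CPM in control. Labelled Pax6 cKO lay apart below both other groups, which overlapped. Fitted log2 fold changes were -0.48 (adjusted p = 0.00137, SE 0.09) in labelled Pax6 cKO and 0.11 (adjusted p = 0.383) in BAF155 cKO, and the direct difference was 0.59 (adjusted p = 0.00213, SE 0.09). Epha7 followed the same order, with means of 83.1 CPM in BAF155 cKO, 57.6 CPM in labelled Pax6 cKO and 78.7 CPM in control, a log2 fold change of -0.45 in labelled Pax6 cKO (adjusted p = 0.00257) and a direct difference of 0.53 (adjusted p = 0.00516). Epha4, which binds ephrins of both classes and was the highest Eph receptor per length, averaged 404 CPM in BAF155 cKO, 321 CPM in labelled Pax6 cKO and 369 CPM in control and was called in no contrast.

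Epha2, a low EphA receptor, had 1.36, 1.89, 2.66 and 2.04 CPM in BAF155 cKO, 1.62, 1.87, 1.71 and 1.88 CPM in labelled Pax6 cKO and 2.74, 2.98, 2.47 and 2.39 CPM in control. Labelled Pax6 cKO lay below control (log2 fold change -0.58, adjusted p = 0.0269, SE 0.19), and BAF155 cKO overlapped both (-0.44, adjusted p = 0.132). The call was lost without control 2 or labelled Pax6 cKO 1 or 3 (0.0571 to 0.0713). Epha6, Epha8 and Epha10, the last known to lack kinase activity, were called in no contrast.

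EphB receptors mainly bind the ephrin-B ligands. Of the 5, 4 were called lower in labelled Pax6 cKO, where 18.9% of all tested genes were called lower. The log2 fold changes of the 4 were -0.39 for Ephb1, -0.49 for Ephb2, -0.35 for Ephb4 and -0.33 for Ephb6. Of these calls, that of Ephb1 was lost without labelled Pax6 cKO 1 (adjusted p = 0.051), that of Ephb4 without control 3 or 4 or labelled Pax6 cKO 1, 3 or 4 (0.0668 to 0.109) and that of Ephb6 without control 1 or 3 or any labelled Pax6 cKO library (0.0611 to 0.107). In BAF155 cKO Ephb3 and Ephb6 were called lower, as were 7.56% of all tested genes. Ephb3 had 16.2, 15.8, 16.5 and 16.6 CPM in BAF155 cKO, 21, 23.4, 18.9 and 20 CPM in labelled Pax6 cKO and 21.3, 21.7, 23.3 and 23.7 CPM in control. The BAF155 cKO libraries lay close together below all others. Its fitted log2 fold change was -0.47 (adjusted p = 0.00282, SE 0.09) in BAF155 cKO and -0.11 (adjusted p = 0.323) in labelled Pax6 cKO. The direct difference of -0.36 (adjusted p = 0.0323, SE 0.09) was lost without BAF155 cKO 1, 2 or 3 or labelled Pax6 cKO 1, 2 or 4 (0.0664 to 0.103). Ephb6, which lacks kinase activity, was called at a log2 value of -0.54 (adjusted p = 0.00844, SE 0.12) in BAF155 cKO, where replicate 1, at 57.7 CPM, stood above control 4, at 57.2 CPM.

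The Robo receptors bind Slits, except that mammalian Robo3 does so only weakly and Robo4 is mainly endothelial. Robo1 had 235, 296, 310.0 and 241 CPM in BAF155 cKO, 187, 205, 188 and 185 CPM in labelled Pax6 cKO and 283, 296, 327 and 330.0 CPM in control. Labelled Pax6 cKO lay below every other library (log2 fold change -0.69, adjusted p = 0.000179, SE 0.10), and BAF155 cKO overlapped control (-0.19, adjusted p = 0.183); the direct difference was 0.50 (adjusted p = 0.0102, SE 0.10). Robo2 had 203, 262, 352 and 258 CPM in BAF155 cKO, 256, 272, 260.0 and 282 CPM in labelled Pax6 cKO and 359, 394, 412 and 347 CPM in control. It was lower in both, with log2 fold changes of -0.50 in labelled Pax6 cKO (adjusted p = 0.00811) and -0.49 in BAF155 cKO (adjusted p = 0.0214), but BAF155 cKO 3 stood within control. The call in BAF155 cKO was lost without BAF155 cKO 1 or 4 or control 3 (0.0513 to 0.0635).

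Robo3, known from commissural neurons, was the guidance gene with the greatest rise in both comparisons. It had 20.9, 7.96, 8.37 and 16.3 CPM in BAF155 cKO, 25.6, 11.8, 21.9 and 15.8 CPM in labelled Pax6 cKO and 5.85, 5.64, 2.80 and 7.45 CPM in control. All cKO libraries lay above all controls, but BAF155 cKO 2 and 3 lay close to control 4. The mean was 246% of control in BAF155 cKO (log2 fold change 1.30, adjusted p = 0.0289, SE 0.35) and 346% in labelled Pax6 cKO (1.79, adjusted p = 0.00232, SE 0.35). The call in BAF155 cKO was lost without BAF155 cKO 1 or 4 or control 1, 2 or 3 (0.0513 to 0.103) and that in labelled Pax6 cKO held without any 1 library. Beside this, the 8 thalamic markers summed to 153 to 223 CPM in BAF155 cKO, 161 to 180 CPM in labelled Pax6 cKO and 104 to 147 CPM in control. These markers did not move as 1: 2 were called higher and 1 lower in BAF155 cKO, and 2 higher and 2 lower in labelled Pax6 cKO. The 9 hypothalamic and diencephalic markers, 1 of them at 0 in all libraries, summed to 18.6 to 22.2 CPM in BAF155 cKO, 13.4 to 18 CPM in labelled Pax6 cKO and 7.2 to 11.8 CPM in control. Only 5 of the 9 were tested, of which 4 were called higher in BAF155 cKO and 2 in labelled Pax6 cKO, and none lower. This list shares Lhx1 with the Cajal-Retzius markers. The part of these tissues in the Robo3 values was not tested.

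Split by lane, BAF155 cKO 1 and 2 alone kept 5 of the 11 lower calls against control and BAF155 cKO 3 and 4 alone kept 7. Sema5a stood at -1.79 in both lanes, Nrp1 at -0.64 in lane 1 (adjusted p = 0.0482) and -1.03 in lane 3 (adjusted p = 0.00188). Epha3 was not called in either lane alone (-0.30, adjusted p = 0.188, and -0.35, adjusted p = 0.0513). None of the 3 higher calls was kept in either lane, and Slit2 was called higher in lane 1 alone (0.61, adjusted p = 0.0397). A fit of only the 8 libraries compared called 1 guidance gene higher and 6 lower. No such split can be made for labelled Pax6 cKO, whose libraries all carried 1 lane number.

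Since the controls are of mixed sex, both comparisons were repeated with the 2 controls of the sex of each cKO group. Sema5a gave -2.01 (adjusted p = 2.64e-08, SE 0.10) in BAF155 cKO and -1.85 (adjusted p = 2.46e-07, SE 0.12) in labelled Pax6 cKO. In BAF155 cKO 9 of the 11 lower calls were kept, without Sema3c (-0.22, adjusted p = 0.21) and Sema7a (-0.27, adjusted p = 0.0539), and Efnb2, Sema3g, Sema4d and Sema6d were gained. The higher calls of BAF155 cKO were all lost, with 0.34 for Nrp2 (adjusted p = 0.126), 1.37 for Robo3 (adjusted p = 0.105) and 0.22 for Slit1 (adjusted p = 0.143).

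In labelled Pax6 cKO, where 2 male controls remain, 12 of the 29 lower calls were kept: Efna3, Epha3, Epha5, Epha7, Ephb1, Plxna2, Plxna4, Robo1, Sema3a, Sema4d, Sema5a and Sema6d. Among the calls lost were Dcc (-0.44, adjusted p = 0.0707), Efnb1 (-0.41, adjusted p = 0.0545), Nrp1 (-0.57, adjusted p = 0.0725) and Slit2 (-0.36, adjusted p = 0.196). Robo3 remained higher (1.71, adjusted p = 0.0485). The counts over all genes also fell, to 530 higher and 845 lower with 2 controls, against 2745 higher and 3121 lower with all 4. In BAF155 cKO they grew, to 1822 higher and 2472 lower with 2 controls, against 998 higher and 1248 lower with all 4.

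**Figure D4:**
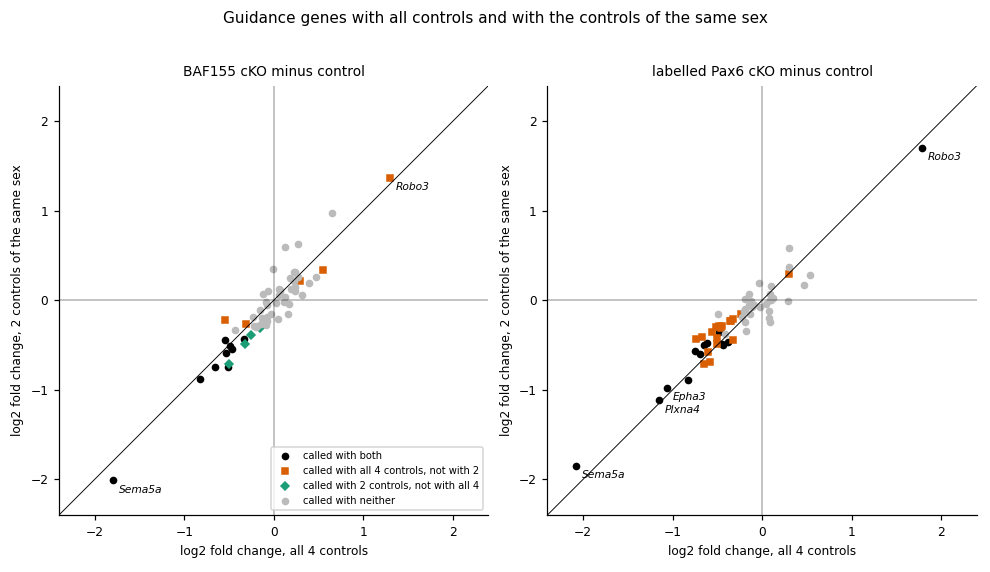
Log2 fold change of each tested guidance gene against the 2 controls of the same sex (vertical axis) and against all 4 controls (horizontal axis), with the line of equality; shape and colour give where it was called. Sema5a, Plxna4 and Epha3 lie near the line and are called in labelled Pax6 cKO with both sets, and Robo3 is called with both sets only in labelled Pax6 cKO.

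Other genes of guidance signalling were read from a list of 69 receptors, co-receptors and intracellular effectors, of which 68 were tested. In BAF155 cKO 12 were called lower and 1 higher, where 7.56% of all tested genes were called lower and 6.04% higher. In labelled Pax6 cKO 33 were lower and 3 higher, where 18.9% of all tested genes were called lower and 16.6% higher. The median log2 fold change of the list was -0.20 in BAF155 cKO and -0.25 in labelled Pax6 cKO, against 0.01 and 0.02 for all tested genes. Unc5d, a repulsive netrin receptor that also marks upper-layer neurons, had 49.0, 61.2, 46.7 and 50.6 CPM in BAF155 cKO, 35.0, 33.1, 35.4 and 37.8 CPM in labelled Pax6 cKO and 150.0, 140.0, 145 and 138 CPM in control. The 3 groups did not overlap, and the log2 fold change was -1.47 (adjusted p = 3.3e-08, SE 0.09) in BAF155 cKO and -2.02 (adjusted p = 5.93e-10, SE 0.09) in labelled Pax6 cKO. Its relative Unc5c was higher, by 0.73 (adjusted p = 0.000556, SE 0.11) in BAF155 cKO and by 1.06 (adjusted p = 9.26e-06, SE 0.11) in labelled Pax6 cKO.

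Cdon, a co-receptor shared with hedgehog signalling, fell by 0.93 in BAF155 cKO (adjusted p = 0.000146) and by 1.19 in labelled Pax6 cKO (adjusted p = 8.39e-06). The neogenin ligand Rgma fell by 0.70 in BAF155 cKO (adjusted p = 0.000255) and by 0.60 in labelled Pax6 cKO (adjusted p = 0.000494). The axonal adhesion molecule Cntn2 fell by 0.85 in BAF155 cKO (adjusted p = 0.00232) and by 1.15 in labelled Pax6 cKO (adjusted p = 0.000114). Boc, a relative of Cdon, fell by 0.51 in BAF155 cKO (adjusted p = 0.00822) and by 1.17 in labelled Pax6 cKO (adjusted p = 4.38e-06). The proteoglycan Sdc3 fell by 0.49 in BAF155 cKO (adjusted p = 0.00461) and by 0.88 in labelled Pax6 cKO (adjusted p = 1.83e-05). The adaptor Nck1 was called higher in labelled Pax6 cKO (0.67, adjusted p = 0.000494; 0.30 in BAF155 cKO, adjusted p = 0.0743), as was the membrane-anchored Ntng1 (0.49, adjusted p = 0.00804; 0.10 in BAF155 cKO, adjusted p = 0.6). Directly compared, Unc5d (0.56), Dscam (0.59), Neo1 (0.48), Boc (0.66) and Sdc3 (0.40) were higher in BAF155 cKO than in labelled Pax6 cKO and Vav3 was lower (-0.67).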

How the data were processed

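RNA from E15.5 mouse cortex was sequenced in 12 libraries, grouped by GEO's labels. The authors deposited whole-number read counts per Ensembl gene ID for each library; per the submitters' processing notes the build is mm10, and no source used here gives the aligner or counter. Per the labels' protocols the TruSeq RNA v2 kit was used, which does not keep strand. Symbols, types and lengths came from GENCODE M21 (48349 IDs matched, 360 did not), and promoter sequences from RefSeq for GRCm38.p6. Of the 48709 genes, 16511 passed filterByExpr. A quasi-likelihood model of all 3 groups was fitted with edgeR 4.0.16 in R 4.3.3 with TMM scaling, and p-values were adjusted over all tested genes (Benjamini-Hochberg, threshold 0.05). CPM divide counts by the library total of the tested genes times its TMM factor, and RPKM also by exon length. The script was tested on simulated counts. Alternatives covered scaling, filters, DESeq2 1.42.0, limma 3.58.1, a replicate block, lane, sex and each library left out. The labels do not say that replicates are separate embryos, so p-values measure the spread between libraries. Depth ran from 15.16 to 32.05 M reads and was lowest in BAF155 cKO 3 and 4, and its effect on the calls was not tested. Members and gene lists were chosen with earlier results of these data known. Genes given in full were those called without overlap in BAF155 cKO, the 12 lowest and any higher gene without overlap in labelled Pax6 cKO, and the 8 largest direct differences. Nrp2, Robo2, Efnb2 and, of the pathway list, Unc5d were given in full besides.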

Additional observations from a re-analysis of the deposited data

Results flagged for a closer look

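Among 195 sets of 4 libraries (a tested guidance gene, Smarcc1, Smarcc2 or Pax6 in a group), 10 held 1 library far from the other 3 by Dixon's test, and chance alone gives about 1 in 20. In all 10 the library was replicate 2. In BAF155 cKO 2, Dcc had 175 CPM (118 to 125 CPM in the other 3), Nrp2 332 CPM (232 to 243), Ntn1 21.1 CPM (28.7 to 29.9) and Sema6b 37.7 CPM (41.7 to 42.4). In labelled Pax6 cKO 2, Plxnd1 had 66.7 CPM (51.0 to 53.3 in the other 3), Robo1 205 CPM (185 to 188) and Sema4c 143 CPM (126 to 127). In control 2, Efna1 had 4.26 CPM (5.32 to 5.35 in the other 3), Slit1 72.4 CPM (87.5 to 88.1) and Slit3 5.21 CPM (12 to 12.8). The choroid plexus markers summed to 27.2 CPM in BAF155 cKO 2, 340 CPM in labelled Pax6 cKO 2 and 19.3 CPM in control 2. Their part in the flagged values was not tested, nor was any other cause.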

How the results depend on the processing

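Every called guidance gene kept its sign under each alternative that was run (308 of 308 values in BAF155 cKO, 620 of 620 in labelled Pax6 cKO and 315 of 315 in the direct contrast), while calls near the threshold moved. In BAF155 cKO against control, guidance genes called higher numbered 0 with no filter, 1 with only the 8 libraries compared, 1 with lane 1, 0 with lane 3 and 0 with same-sex controls, and called lower 6 with the 8 libraries and 5 with lane 1. The pathway list there had 2 higher with DESeq2 and with lane 3, and 6 lower with lane 1 and 25 with same-sex controls. All genes gave 379 higher and 656 lower with the 8 libraries, 258 and 424 with lane 1, and 1822 and 2472 with same-sex controls. In labelled Pax6 cKO, same-sex controls gave 1 higher and 12 lower guidance genes, 17 lower pathway genes, and 530 higher and 845 lower genes in all. In the direct contrast, guidance genes higher numbered 19 with DESeq2 and 7 with lane 3, and lower 1 with no filter, 0 with lane 1 and 0 with lane 3. Pathway genes higher there numbered 11 with DESeq2 and 1 with lane 3, and lower 3 with the 8 libraries, 4 with DESeq2 and 0 with lane 3. All genes there gave 722 higher and 617 lower with DESeq2, 142 and 67 with lane 3, and 164 lower with lane 1. Leaving out each library in turn gave, in BAF155 cKO, 0 to 4 guidance genes higher and 6 to 14 lower, 1 pathway gene higher and 8 to 18 lower, and 346 to 1973 genes higher and 655 to 2100 lower. In labelled Pax6 cKO it gave 1 to 2 and 21 to 31 guidance genes, 3 to 4 and 23 to 36 pathway genes, and 1732 to 2918 and 2093 to 3693 genes. In the direct contrast it gave 11 to 17 and 0 to 4 guidance genes, 2 to 7 and 1 to 3 pathway genes, and 158 to 511 and 143 to 389 genes. The correlations of same-numbered libraries ran from -0.3 to 0.459, so the numbers were not taken as pairs; with a replicate block the guidance genes called were 2 higher and 11 lower in BAF155 cKO, 2 and 27 in labelled Pax6 cKO and 11 and 1 in the direct contrast, with 3 pathway genes and 250 of all genes higher in the direct contrast. The cause was not tested for any of these moves, and fewer libraries enter the fits by lane, by sex and with 8 libraries.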

Other observations

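Snhg18, a noncoding gene chosen after its values were seen because its exon lies in the window before the Sema5a start, had 5.79, 5.03, 4.38 and 6.06 CPM in BAF155 cKO, 6.18, 6.13, 6.37 and 5.85 CPM in labelled Pax6 cKO and 14.6, 16.1, 14.8 and 14.1 CPM in control. All cKO libraries lay below all controls. The log2 fold change by edgeR's quasi-likelihood test was -1.48 (SE 0.12, adjusted p = 6.12e-07) in BAF155 cKO and -1.28 (SE 0.11, adjusted p = 1.66e-06) in labelled Pax6 cKO, and the direct difference of -0.21 was not called (adjusted p = 0.326).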
